A study of Bos taurus with 14 samples.

Results

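Haem synthesis, haem breakdown and myoglobin were followed in bovine muscle through 9 genes: *ALAS1*, *ALAD*, *UROS*, *UROD*, *CPOX*, *FECH*, *HMOX1*, *BLVRA* and *MB*. They were taken as every probe set (the set of short probes with which the array reads a transcript) whose single gene symbol is one of these names. This gave 12 of the 24016 probe sets on the Affymetrix Bovine array, and 9 of the 9155 genes named there. *UROD*, *CPOX* and *FECH* have a second probe set, which served as a check, and the probe set with the highest mean stands for each gene.

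The samples were *M. longissimus dorsi* (LD), a loin muscle, of 14 Charolais × Limousin crossbred heifers, with 1 array per animal. All were growing animals allotted at random to a production system in which they spent the year before slaughter, and the muscle was taken shortly after death. The 7 outdoor/pasture-fed heifers grazed a sward of mainly ryegrass, meadow grass and white clover, and the 7 indoor/concentrate-fed heifers were housed throughout and given a beet pulp and barley concentrate with barley straw. Feed, housing and exercise changed together, so their parts cannot be told apart, and animals within a system were kept in several management groups that the sample labels do not name.

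Haem is an iron-containing ring that carries oxygen in haemoglobin and myoglobin and electrons in the cytochromes. Its synthesis begins in the mitochondrion with aminolevulinate synthase, passes through the cytosol, and returns to the mitochondrion, where ferrochelatase inserts the iron. Haem oxygenase opens the ring to biliverdin, which biliverdin reductase turns into bilirubin. In muscle much of the haem is held by myoglobin, which stores oxygen, gives beef its red colour and is most abundant in slow oxidative fibres. *ALAD* was among the genes that the study selected on these same arrays, so its difference between the systems is described here and is not independent evidence. By the study's account, *ALAD* passed its threshold there after a filter for informative probe sets. The study also reported it higher outdoors by quantitative PCR in a larger set of animals that included these. Those PCR values were not used here.

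Deposited values are on a log2 scale, and a difference of 1 is a doubling. They come from FARMS, a method that fits 1 shared factor to the probes of a probe set and gives an almost constant value where it finds no shared variation. Of the 24016 probe sets, 14393 (59.9%) were nearly constant in this way, and 9623 varied, taken as a standard deviation (SD) of more than 0.01 between arrays. Array medians lay between 6.77 and 6.84. The muscle identity of the samples was borne out by the muscle creatine kinase gene *CKM*, at 13.81, and skeletal actin *ACTA1*, at 14.11. Array summaries hold no read depth, and precision is limited by the number of animals.

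Of the 9 genes, 7 varied over the arrays, and *CPOX* and *MB* did not. Among these 7, 6 had a higher mean in the outdoor/pasture-fed group and 1, *ALAS1*, a lower one, against 47.5% of all varying probe sets with a higher mean outdoors. Their median difference was 0.14, against -0.0077 over all varying probe sets. None of the 9 passed an adjusted p of 0.05 in limma over all probe sets, where 0.0167% of the 24016 passed. At an unadjusted limma p under 0.05 there was 1 of the 7, *ALAD*, or 14.3%, against 19.9% of the varying probe sets, so the share of members at this level was not above the background. The exact permutation test had the same 1 gene. In *ALAD* the groups did not overlap, and they did so in the same direction in 0.488% of varying probe sets.

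**Figure D1:**
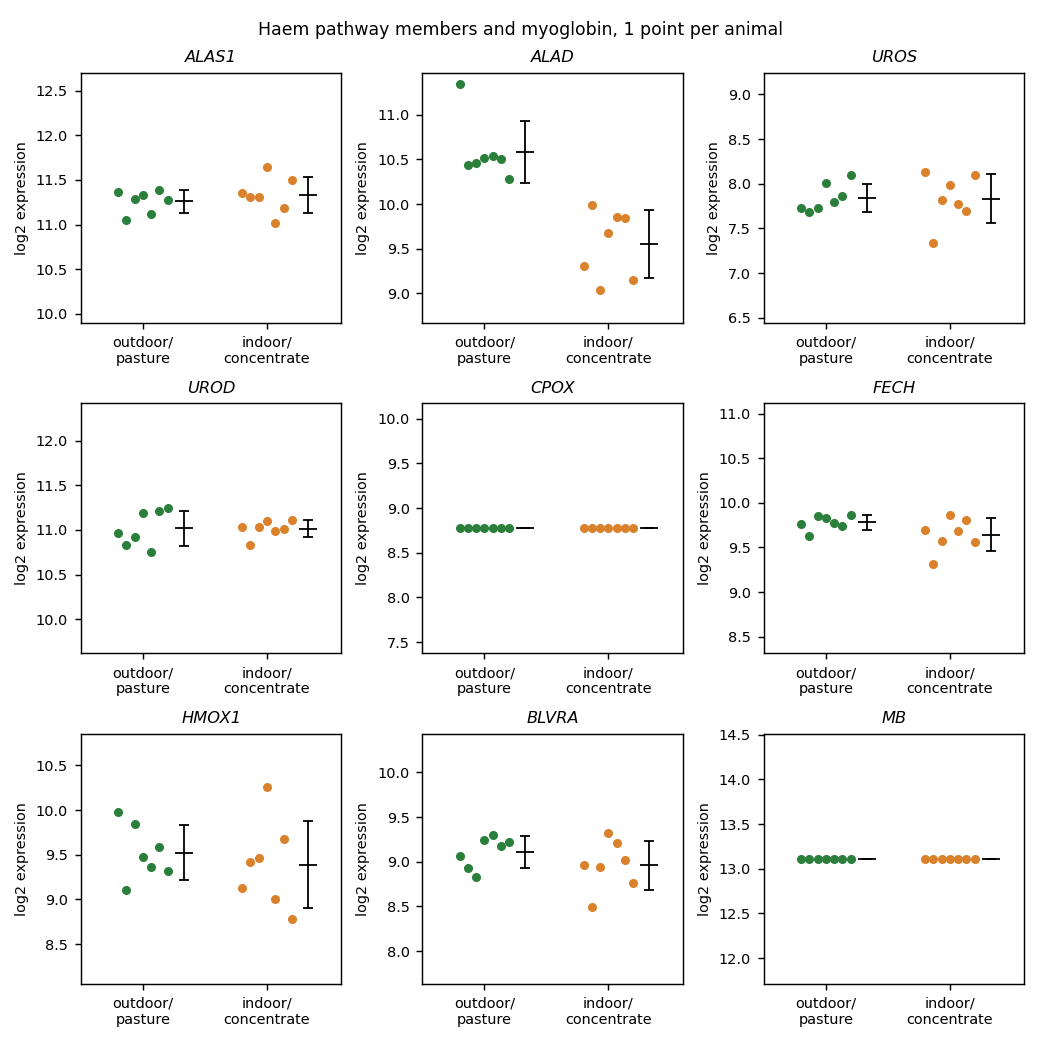
Log2 expression of the 9 genes in each animal, with the outdoor/pasture-fed group on the left and the indoor/concentrate-fed group on the right of each panel, and a cross bar with whiskers for the group mean ± SD (n = 7). Every panel spans the same log2 range. *ALAD* is the only panel in which the groups do not overlap, and *CPOX* and *MB* lie on 1 level on all arrays.

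*ALAS1*, on chromosome 22 (48689689-48703919, ARS-UCD2.0), encodes the housekeeping form of aminolevulinate synthase, the enzyme that starts the pathway and usually limits its rate. Its level ran from 11.05 to 11.38 outdoors, with a median of 11.29, and from 11.02 to 11.65 indoors, with a median of 11.31. The outdoor range lay wholly within the indoor range. The difference, always given as the outdoor/pasture-fed mean less the indoor/concentrate-fed mean, was -0.07 ± 0.09 (SE), and a two-sided exact permutation test of the 7 and 7 animals gave p = 0.445. It ran from -0.12 to -0.019 with 1 animal left out. With a 95% interval from -0.27 to 0.12, a change of the size seen for *ALAD* lies outside what limma allows for *ALAS1*. The erythroid form of the same enzyme, *ALAS2*, was constant at 5.60, close to the lowest values of the table.

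*ALAD*, on chromosome 8 (102642378-102652289), encodes aminolevulinate dehydratase, the zinc enzyme that joins a pair of aminolevulinate molecules into porphobilinogen and is known for its inhibition by lead. The 7 outdoor/pasture-fed heifers had a lowest value of 10.28, a median of 10.50 and a highest value of 11.34. Among the 7 indoor/concentrate-fed heifers the lowest was 9.04, the median 9.67 and the highest 9.99. Every outdoor animal was thus above every indoor animal. Means were 10.58 ± 0.35 (SD, n = 7) and 9.55 ± 0.38 (SD, n = 7), a difference of 1.03 ± 0.19 (SE) or 2.04-fold, with a 95% interval from 0.61 to 1.45.

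The exact permutation p for *ALAD* was 0.000583, the smallest that 3432 assignments of 7 and 7 animals can give. In limma its adjusted p was 0.127 over all probe sets and 0.0286 when only the 9623 varying probe sets were fitted, of which 0.343% passed. By the size of the difference it ranked 31st among the varying probe sets and 18th among those higher outdoors. The outdoor values were close together, with 6 of them between 10.28 and 10.54, and replicate 1 stood apart at 11.34. Without that animal the difference was 0.91, and the adjusted p among varying probe sets was 0.0319. That adjusted p rose above 0.05 when any of the outdoor/pasture-fed replicates 3, 4, 5 and 6 was left out, and equally without the indoor/concentrate-fed replicates 1, 3 or 7, with a highest value of 0.0716 without outdoor/pasture-fed replicate 3. The exact permutation p was between 0.000583 and 0.00117 over all 14 omissions. Leaving out an animal cannot make the groups overlap, so this p was bound to stay near its smallest value. *ALAD* has no second probe set on the array.

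Later enzymes close and trim the ring. *UROS*, uroporphyrinogen synthase (chromosome 26, 45300454-45324547), closes the ring. Its values ran from 7.69 to 8.10 outdoors and from 7.34 to 8.13 indoors, so the groups overlapped, and the difference was 0.01 ± 0.12 (SE; exact permutation p = 0.915). *UROD*, uroporphyrinogen decarboxylase (chromosome 3, 101034183-101037522), trims its side chains. It lay between 10.76 and 11.24 outdoors and between 10.83 and 11.11 indoors, with a difference of 0.0031 ± 0.081 (SE; exact permutation p = 0.970). The second *UROD* probe set was constant at 5.50. For both genes the sign of the difference turned when single animals were left out, and the 95% intervals, from -0.24 to 0.27 and from -0.17 to 0.18, ended well below the *ALAD* difference.

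*CPOX*, coproporphyrinogen oxidase (chromosome 1, 42888156-42901415), had 2 probe sets that were constant at 8.77 and 6.28, and *PPOX*, the oxidase that follows it, was constant at 7.75. No difference can be measured for genes on which the deposited table shows no variation, and a constant value does not show that the transcript was equal in the animals.

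*FECH*, on chromosome 24 (56787248-56822085), encodes ferrochelatase, the last enzyme of synthesis. Outdoors it ran from 9.63 to 9.87 with a median of 9.78, and indoors from 9.32 to 9.87 with a median of 9.69. The groups overlapped, and the 3 lowest indoor animals lay below all outdoor animals. The difference was 0.14 ± 0.08 (SE), with an exact permutation p of 0.0857 and a limma adjusted p of 0.527. The second *FECH* probe set, at a lower level, had the same direction, with 0.10 ± 0.03 (SE), an exact permutation p of 0.0175 and a limma adjusted p of 0.297. Both probe sets read the same 14 RNA samples. The exact permutation p of the first probe set was 0.049 without outdoor/pasture-fed replicate 2, 0.0227 without replicate 4 of the indoor animals and 0.049 without replicate 6 of the same group. The other 11 omissions gave p from 0.0938 to 0.173, the highest without indoor replicate 2, where the difference was 0.082.

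**Figure D2:**
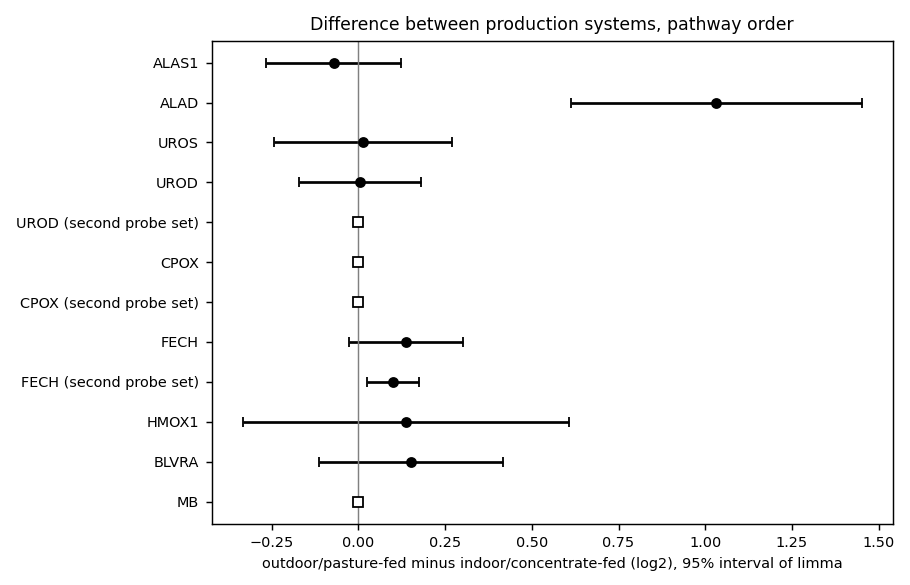
Difference between the production systems for the 12 probe sets in pathway order, as the outdoor/pasture-fed less the indoor/concentrate-fed mean in log2 units, with the 95% interval of limma (n = 7 and 7). Filled circles are probe sets that varied and open squares those that were nearly constant. The interval of *ALAD*, from 0.613 to 1.45, lies apart from 0. It starts just above the end of the *HMOX1* interval, at 0.607, and farther above those of the other genes.

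Haem breakdown was read by *HMOX1* and *BLVRA*. *HMOX1*, the inducible haem oxygenase (chromosome 5, 73623470-73630535), is switched on by haem itself and by oxidative stress. It lay between 9.11 and 9.98 outdoors and between 8.78 and 10.26 indoors. This was the widest spread after *ALAD* among the 9 genes, and it was within the groups. The difference was 0.14 ± 0.22 (SE; exact permutation p = 0.545). *BLVRA*, biliverdin reductase A (chromosome 4, 77284037-77335575), ran from 8.83 to 9.30 outdoors and from 8.50 to 9.32 indoors. It overlapped as well, with a difference of 0.15 ± 0.12 (SE; exact permutation p = 0.245). The interval for *HMOX1* reached 0.61 and that for *BLVRA* 0.42, so a difference within these limits could not be told from 0 with these animals. With 1 animal left out the *HMOX1* difference ran from 0.034 (without indoor/concentrate-fed replicate 7) to 0.28 (without replicate 4 of that group), and the *BLVRA* difference from 0.074 (without replicate 2 of that group) to 0.21.

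*MB*, myoglobin, lies on chromosome 5 (73814162-73824954), 184 kb from *HMOX1*. Its value was 13.11 on each of the 14 arrays, and the lowest and highest differed by 3.26e-05. Only 159 probe sets had a brighter mean. Of the 195 probe sets with a mean above 13, 112 (57.4%) varied, against 78.1% of those between 11 and 13. *CKM*, *ACTA1* and the fast troponin gene *TNNT3* were constant at the top of the table too. The question of whether *ALAD* moves with myoglobin therefore could not be put to these values. Neither a correlation nor a fit with *MB* as a covariate has a meaning where *MB* does not vary, and neither was run. The table cannot tell whether myoglobin transcript was equal in the animals or whether its variation was lost in the summary of the probes.

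What could be tested is whether the *ALAD* difference exceeded that of each other member that varied. The difference of the log2 ratio of *ALAD* to the other gene was between 0.88 (*BLVRA*) and 1.10 (*ALAS1*) in these 6 comparisons. Exact permutation p-values ran from 0.000583 to 0.0035, and Benjamini-Hochberg adjusted values over the 6 from 0.00233 to 0.0035. The ratio to *ALAS1* did not overlap between the groups, with *ALAD* relatively higher in all 7 outdoor animals. In the ratios to *UROS*, *UROD*, *FECH*, *HMOX1* and *BLVRA* the groups overlapped in part. Ratios to *CPOX* and *MB*, which were constant, would only repeat the difference of *ALAD* and give no comparison. *ALAD* was chosen on its own difference, so the tests say only that the 6 other varying members did not share it in full.

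Within the groups, *ALAD* was set against the 6 other varying members and, because *MB* was constant, against the mean of 8 slow fibre markers. The latter choice was made after the constancy of *MB* was seen. Of these markers, *MYL2* was itself nearly constant, and *MYL3* had the largest SD, 0.50 outdoors and 0.86 indoors. The mean was not scaled, so a gene with a large SD weighs more in it. With the group means removed, Pearson's r over the 14 animals was -0.58 for *UROS* (permutation p = 0.0372, adjusted over the 7 relations 0.13) and 0.45 for *HMOX1* (permutation p = 0.134, adjusted 0.313). It was -0.32 for *UROD*, -0.10 for *ALAS1*, -0.04 for *FECH* and -0.0064 for *BLVRA*, with adjusted permutation p from 0.515 to 0.984. For the slow fibre mean r was 0.61 (permutation p = 0.0141, adjusted 0.099). None passed the adjustment.

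On ranks within groups, Spearman's rho was -0.39 for *UROS* (permutation p = 0.193), -0.57 for *UROD* (permutation p = 0.0487, adjusted 0.341) and 0.41 for the slow fibre mean (permutation p = 0.171). The rho for *HMOX1* was 0.34, for *ALAS1* -0.07, for *FECH* -0.14 and for *BLVRA* 0.21, with adjusted permutation p from 0.466 to 0.836. After removal of the 2 animals farthest from the median of the other measure, r fell in size to -0.46 for *UROS* and was 0.40 for the slow fibre mean, with permutation p of 0.154 and 0.197, so the signs were kept and neither p stayed under 0.05 among the 12 animals left. In each group alone, the largest r was that of the slow fibre mean in the outdoor/pasture-fed animals, 0.82 (exact permutation p = 0.0476, adjusted over 14 relations 0.323), with a rho of 0.39, and indoors r was 0.64 (exact permutation p = 0.096).

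**Figure D3:**
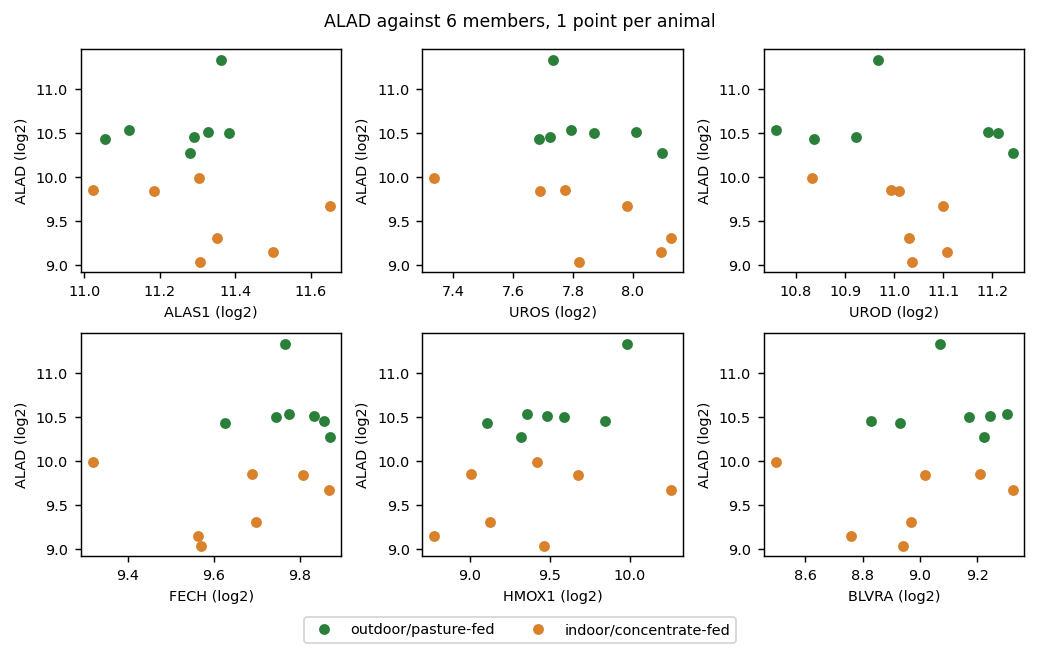
*ALAD* on the vertical axis against each of the 6 other varying members on the horizontal axis, both in log2 expression, with 1 point per animal and green for outdoor/pasture-fed and orange for indoor/concentrate-fed. The groups separate along the *ALAD* axis and overlap along every horizontal axis, and within groups no relation passed the adjustment over the 7 relations.

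Genes whose levels tracked *ALAD* most closely within the groups were taken from 4640 varying genes, as a description over the same 14 arrays. The 5 highest group-centred r were 0.83 for *LOC512672*, 0.80 for *TYRP1*, 0.79 for *PLIN5*, 0.78 for *SYBU* and 0.77 for *FNBP1L*. *TYRP1* encodes a melanosome enzyme and *PLIN5* a coat protein of lipid droplets in oxidative tissue. The animal with the highest *ALAD* carried part of this likeness. Without outdoor/pasture-fed replicate 1, r was 0.74, 0.63, 0.74, 0.64 and 0.65, and the ranks were 7, 48, 6, 38 and 32. No such list could be drawn up for *MB*.

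The surrounding pathway was read through 71 further genes of haem and iron handling, of which 45 were measured and 34 varied. Of the 34, 19 had a higher and 15 a lower mean outdoors, with a median difference of 0.01. None passed an adjusted p of 0.05 in limma over all probe sets. At an unadjusted limma p under 0.05, 6 of the 34 genes were higher and 4 of the 34 lower, against 9.23% and 10.7% of all varying probe sets. Without outdoor/pasture-fed replicate 1 there were 6 such genes in place of 10.

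On the synthesis side, *FAM210B*, a mitochondrial membrane protein that promotes haem synthesis in red cell precursors, was the only other varying gene. It ran from 12.64 to 13.07 outdoors and from 12.19 to 12.86 indoors, a difference of 0.26 ± 0.10 (SE; exact permutation p = 0.0157, limma adjusted p = 0.347). In haem and precursor transport, 3 of 4 varying genes had a higher mean outdoors, against 47.5% of all varying probe sets. *PGRMC1*, a haem-binding membrane protein that partners ferrochelatase, differed by 0.26 ± 0.10 (SE; exact permutation p = 0.0338, limma adjusted p = 0.361), and its second probe set by 0.39 ± 0.10 (SE; limma adjusted p = 0.196). The exporter gene *ABCG2* differed by 0.20 ± 0.14 (SE; exact permutation p = 0.187).

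Among users of haem in the respiratory chain, all 4 varying genes of haem a synthesis and cytochrome c haem attachment had a higher mean outdoors, 2 of them at an unadjusted limma p under 0.05. Over all varying probe sets these shares were 47.5% and 9.23%, and 4 genes are few to set against them. *CYC1*, the haem-bearing cytochrome c1 of complex III, differed by 0.29 ± 0.11 (SE; exact permutation p = 0.0221, limma adjusted p = 0.337), and *COX15*, which makes haem a for cytochrome oxidase, by 0.10 ± 0.04 (SE; exact permutation p = 0.0268, limma adjusted p = 0.349). *COX10* and *HCCS* differed by 0.0056 and 0.02. In haem breakdown, the constitutive oxygenase *HMOX2* was at -0.24 ± 0.18 (SE; exact permutation p = 0.211), opposite in sign to *HMOX1*, and neither passed the test.

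Iron genes went both ways, with 5 of 10 varying genes higher and 5 lower outdoors and a median of -0.08. *SLC25A28*, mitoferrin 2, which brings iron into the mitochondrion, had the smallest p of all 34 genes. Its range was 9.12 to 9.29 outdoors and 8.99 to 9.14 indoors, with a difference of 0.14 ± 0.03 (SE; exact permutation p = 0.00175, limma adjusted p = 0.147), which is 1.10-fold. On the lower side, *ACO1*, the cytosolic aconitase that doubles as an iron sensor, ran from 8.57 to 9.18 outdoors and from 8.94 to 9.71 indoors, a difference of -0.41 ± 0.13 (SE; exact permutation p = 0.0134, limma adjusted p = 0.28). The zinc and iron importer gene *SLC39A14* differed by -0.22 ± 0.10 (SE; exact permutation p = 0.0402, limma adjusted p = 0.406). Of the ferritin chains, *FTH1* was constant and *FTL* was at -0.32 ± 0.19 (SE; exact permutation p = 0.145). In iron-sulphur cluster assembly 4 of 7 varying genes had a higher and 3 a lower mean outdoors. The cysteine desulphurase *NFS1* was at 0.26 ± 0.12 (SE; exact permutation p = 0.0536) and the assembly factor *ISCA2* at -0.012 ± 0.0063 (SE; exact permutation p = 0.0927).

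Factors that act on myoglobin and *ALAS1* transcription had lower means outdoors in 5 of 6 varying genes, among them *MEF2C* at only -0.0040. Over all varying probe sets 47.5% had a higher mean outdoors. *NFATC1*, a calcineurin-dependent factor of the slow fibre programme, ran from 7.07 to 8.04 outdoors and from 7.58 to 9.99 indoors, a difference of -1.05 ± 0.33 (SE; exact permutation p = 0.00583, limma adjusted p = 0.264). *PPARA*, a nuclear receptor of fatty acid oxidation, was at -0.18 ± 0.08 (SE; exact permutation p = 0.039, limma adjusted p = 0.412). Both had a second probe set that was constant. The other globin measured, *CYGB*, was constant at 6.44.

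**Figure D4:**
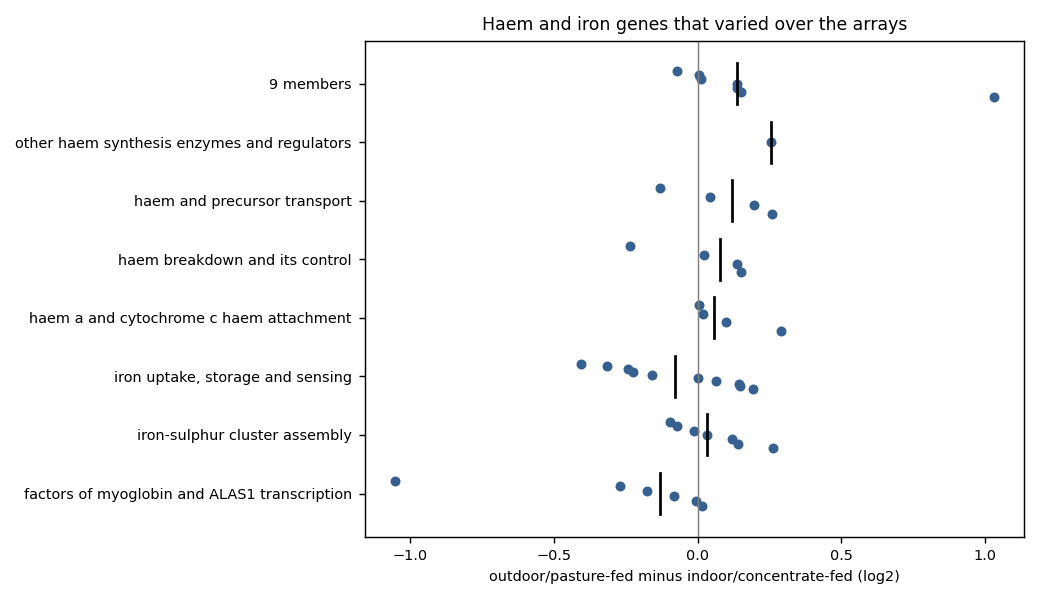
Difference between the systems (outdoor/pasture-fed less indoor/concentrate-fed mean, log2) for each varying gene of the 9 members and of the haem and iron lists, 1 point per gene, with a vertical bar at each list's median. *HMOX1* and *BLVRA* also stand in the haem breakdown list. *ALAD* at 1.03 and *NFATC1* at -1.05 lie far from the other genes, and the list medians lie between -0.13 and 0.26.

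In whole muscle, fewer cells of a type and less RNA per cell cannot be told apart, so the markers of other cell types were set beside these results. Red cell precursors make haem in bulk. Of 9 measured markers 6 were constant, among them *HBA*, *SLC4A1* and *GATA1* between 5.25 and 5.58. *HBB*, the beta globin gene, was at 5.51 outdoors and 5.53 indoors, *AHSP*, the alpha globin chaperone, at 7.11 and 7.23, and *GYPC*, a membrane glycoprotein of red cells that other cells also carry, at 9.83 and 9.99. None of these 3 varying markers had an unadjusted limma p under 0.05. The mean of the list ran from 6.09 to 6.23 outdoors and from 6.14 to 6.29 indoors, and since 6 of its 9 genes are constant it could move little. Its part in the *ALAD* difference was not tested.

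Endothelial markers were higher in the group in which *ALAD* was higher. Of 7 measured markers, *VWF* was constant at 5.75. The other 6 were higher in mean outdoors, all at an unadjusted limma p under 0.05 and none past the adjusted threshold, with a median difference of 0.46. Over all varying probe sets, 47.5% had a higher mean outdoors and 9.23% had one at an unadjusted limma p under 0.05. *PECAM1*, an adhesion molecule of vessel walls, did not overlap, with 9.89 to 10.57 outdoors and 9.48 to 9.88 indoors. The list mean ran from 8.62 to 8.99 outdoors and from 8.14 to 8.62 indoors, and the lowest outdoor animal lay just above the highest indoor animal. Its part in the *ALAD* difference was not tested.

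Slow fibre markers, which accompany myoglobin, had higher means outdoors in 7 of 7 varying genes, with a median difference of 0.13. Over all varying probe sets, 47.5% had a higher mean outdoors. *ATP2A2*, the slow calcium pump, reached an unadjusted limma p under 0.05, with a difference of 0.16 and an adjusted p of 0.341. The list mean ran from 13.14 to 13.33 outdoors and from 12.61 to 13.28 indoors. Fast fibre markers had a lower mean outdoors in 4 of 5, with a median of -0.02 and list means of 13.85 to 13.92 outdoors and 13.84 to 13.91 indoors. At an unadjusted limma p under 0.05 there were 3 lower genes (*TNNI2*, *TNNC2* and *ACTN3*, from -0.07 to -0.015) and 1 higher, the myosin gene *MYH1*, at 0.14 (exact permutation p = 0.00117, limma adjusted p = 0.148). Over all varying probe sets 10.7% were lower and 9.23% higher at this level. The other *MYH1* probe sets went both ways, from -0.90 (limma adjusted p = 0.288) to 0.20 (limma adjusted p = 0.761). All 7 macrophage and leukocyte markers had higher means outdoors, none at an unadjusted p under 0.05, with list means of 7.03 to 7.94 and 6.65 to 7.78. The mean was lower outdoors in 6 of 7 adipocyte markers and in 3 of 7 fibroblast markers. None of these lower markers had an unadjusted limma p under 0.05. The adipocyte marker that was higher outdoors, *LPL*, had one, with a difference of 0.58 (limma adjusted p = 0.427). For these lists too the part in the *ALAD* difference was not tested.

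**Figure D5:**
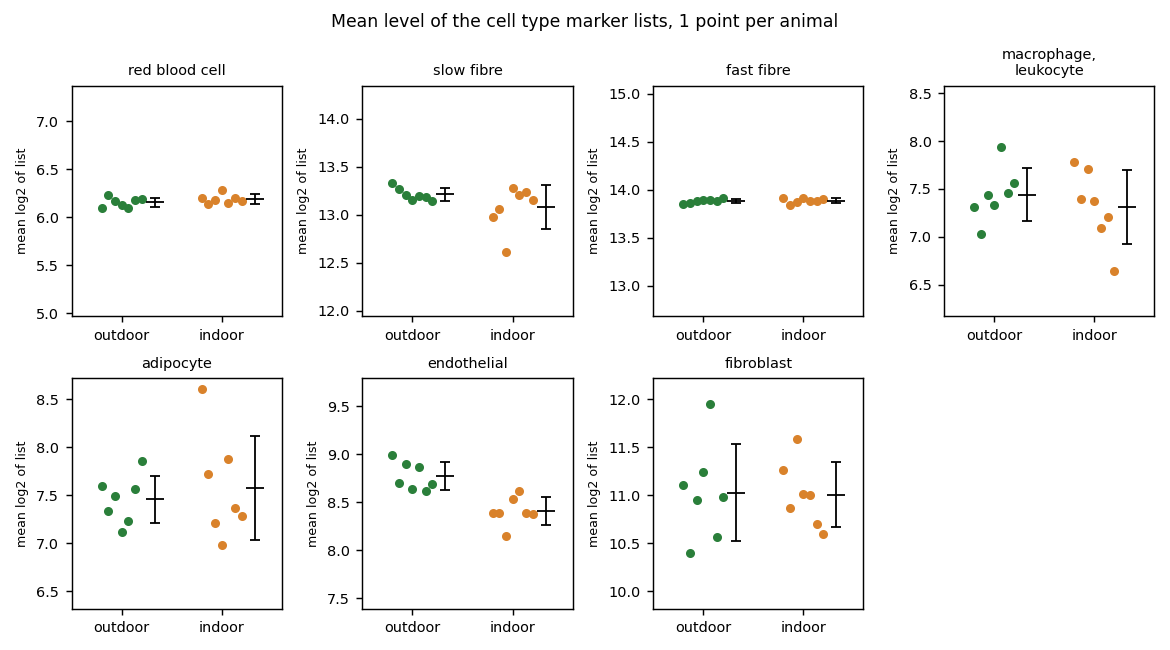
Mean log2 level of each cell type marker list in every animal, outdoor/pasture-fed in green and indoor/concentrate-fed in orange, with a cross bar and whiskers for the group mean ± SD (n = 7), and the same log2 span in each panel. The endothelial list is at 8.77 outdoors and 8.40 indoors and just fails to overlap. Its lowest outdoor animal is at 8.618 and its highest indoor animal at 8.616. The other lists overlap widely.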

How the data were processed

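Gene expression was measured in LD muscle of 14 heifers, 7 per production system, on 1 Affymetrix array each. According to the study's methods, quantile normalisation and FARMS summarisation had been applied by the authors, so the table was used as deposited, in log2 units, with no further scaling. Their filter for informative probe sets needs probe-level data and was not repeated. The table holds 24128 probe sets. The 112 controls were left out. Gene symbols came from the platform annotation and locations from a RefSeq gene table (ARS-UCD2.0). Symbols were single for 13292 probe sets.

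Differences were fitted over all 24016 probe sets with lmFit and eBayes of limma 3.58.1 (R 4.3.3), with p-values adjusted after Benjamini-Hochberg and a cut-off at 0.05. Two-sided exact permutation tests took all assignments of 7 and 7 arrays (numpy 2.4.6, scipy 1.17.1). Correlations after removal of group means used 100000 permutations within groups. Both tests were tested on simulated data. The labels name no batch.

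The members, the gene lists and the tests were chosen with earlier results of these data known. All 9 members were named with every probe set. In each other list the 2 genes with the smallest p were named where none passed, and *PPOX* and *ALAS2* in any case. *COX10*, *HCCS*, *SLC39A14*, *FTH1*, *FTL*, *MEF2C* and the marker genes were named after their values were seen. Alternatives were SD and level filters, trended and robust priors, renewed normalisation, median centring, array weights, a replicate block, other probe sets and leaving out each array.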

Additional observations from a re-analysis of the deposited data

Results flagged for a closer look

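Within the groups of 7 animals, 16 sets of values from the varying probe sets of the members were searched for a single animal lying far from the rest by Dixon's criterion at the 95% level, and 2 met it. Chance gives about 1 in 20. The *ALAD* value of outdoor/pasture-fed replicate 1 was 11.34, and the next highest outdoor animal was at 10.54. The *UROD* value of indoor/concentrate-fed replicate 2 was 10.83, and the next lowest indoor animal was at 10.99.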

How the results depend on the processing

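The *ALAD* difference kept its direction under every alternative run, and its exact permutation p stayed under 0.05. With 1 array left out both were fixed in advance, because the groups do not overlap. By limma, 0 members passed an adjusted p of 0.05 over all probe sets. With only SDs above 0.01 (adjusted p = 0.0286) or above 0.1 (adjusted p = 0.0198), 1, *ALAD*, passed. In those fits fewer probe sets were tested. The variance prior, the spread that limma borrows across probe sets, was also estimated anew from them. With the other probe set where a gene has a second, 2 members had an unadjusted p under 0.05. They were *FECH*, on its second probe set, and *ALAD*, whose only probe set was kept. Leaving out 1 array gave 1 to 2 such members, with 2 without indoor/concentrate-fed replicate 4, and 6 to 12 of the other haem and iron genes. The *UROS* difference turned to -0.018 with array weights, and ran from -0.070 to 0.062 with 1 array left out. The *UROD* difference turned to -0.00093 with median centring, and ran from -0.034 to 0.046 with 1 array left out. For *FECH* that range was 0.082 to 0.17. The cause of these changes was not tested.

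Adding the replicate number as a block left 0 members past the adjusted threshold, with an adjusted p of 0.312 for *ALAD*. Its paired exact permutation p was 0.0156, the smallest that 7 pairs can give. The block left 8 of the other haem and iron genes at an unadjusted p under 0.05, in place of 10, and changed no call on a member. Of all probe sets it left 2 past the adjusted threshold in place of 4. Same-numbered arrays deviated together with r from -0.18 to 0.24, over 0.1 in 2 of 7 pairs, and 2 of the 7 numbers had their own partner as the closest, so the numbers do not pair the animals.

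Among the relations of *ALAD* within groups, that to *FECH* turned to 0.27 without the 2 farthest arrays. That to *BLVRA* turned to 0.21 by Spearman's rho, 0.21 without the 2 farthest arrays and 0.038 without outdoor/pasture-fed replicate 1. Those to *UROS* (r = -0.64, permutation p = 0.0521) and to the slow fibre mean (r = 0.62, permutation p = 0.0899) had p over 0.05 without outdoor/pasture-fed replicate 1.

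The correlation of *ALAD* with *MB* and the fit with *MB* as a covariate were not run under any setting, because *MB* was constant. Filters, priors and array weights do not enter the exact tests. *CPOX*, *MB* and other constant genes have no measurable difference. The number of animals, 7 a group, limits the precision.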
